A study of Mus musculus and Homo sapiens with 33 samples.

Results

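The genes described here encode ligands on the tumour cell surface, or released from it, that T cells and natural killer cells read. They were taken by symbol from a named set of 10 genes: CD274, CD80, LGALS9, PVR, NECTIN2, MICA, MICB, ULBP1, ULBP2 and ULBP3. Of the 10, 9 were found among the 20347 genes of the human H358 comparison, and 3 (Lgals9, Cd80 and Ulbp1) were found under their mouse symbols among the 2509 rows of the LLC1 table. CD80 was not analysed here in H358, and Cd274, Pvr and Nectin2 were not analysed here in LLC1. H358 cells are from human non-small-cell lung cancer, and LLC1 cells from mouse Lewis lung carcinoma. The compared groups were cEMSY overexpression against empty vector in H358, and cEmsy overexpression against empty vector in LLC1, with 3 libraries of total RNA in each group. The labels give the genotype of both empty vector groups as WT and name no other allele or agent. cEMSY and cEmsy are circular RNAs, and the study addressed how they bear on immunogenic cell death, in which dying cells provoke an immune response. The 21 drug-panel libraries of the series, which hold circular RNAs of LLC1, were not used here.

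Natural killer cells and cytotoxic T cells weigh activating against inhibiting signals from a target cell. NKG2D, an activating receptor, binds stress-induced relatives of MHC class I molecules, in humans the MIC and ULBP proteins and in mice the Rae1, H60 and MULT1 proteins. DNAM-1 activates and TIGIT inhibits lymphocytes through the same ligands, PVR (CD155) and NECTIN2 (CD112). PD-L1, the product of CD274, restrains T cells through PD-1. CD80 binds CD28, which costimulates T cells, and CTLA-4, which restrains them, and galectin-9, the product of LGALS9, is a ligand of TIM-3.

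Whether the numbered libraries of a group come from separate cultures is not stated in the labels, and the p-values therefore measure only library-to-library spread, which could be technical. The 2 tables differ in kind. The H358 table holds the authors' own comparison over 20347 genes, with no values per library used here, so its errors are theirs. The LLC1 table holds a value per library, but only for rows the authors had called changed, its unit is not named and its depth is unknown. EMSY rose by 3.84 ± 0.07 (SE, log2 scale) in the authors' deposited table, a gene-level value that does not separate circular from linear RNA, and Emsy was not analysed here in LLC1. In a bulk sample, fewer cells that carry an RNA and less of that RNA per cell cannot be told apart.

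In H358 cells with cEMSY overexpression, ULBP1 and ULBP2, which encode NKG2D ligands, and NECTIN2 were higher, and PVR was lower than with empty vector. CD274 and LGALS9 did not pass the test, and neither did MICA, MICB or ULBP3. In LLC1 cells with cEmsy overexpression Lgals9 and Cd80 rose and Ulbp1 fell. With an adjusted p of 0.05 as the threshold, 4 of the 9 H358 genes passed in the authors' deposited table, 3 higher and 1 lower. Of all 19154 genes with an adjusted p 32.4% passed in the authors' deposited table, 15.6% higher and 16.8% lower, and of the genes whose mean signal lay within the range of the 9, 39.3% passed. The share among the ligand genes is therefore read as near the background. The median log2 fold change of the 9 was 0.41 in the authors' deposited table, against 0.03 over all genes with an adjusted p.

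**Figure D1:**
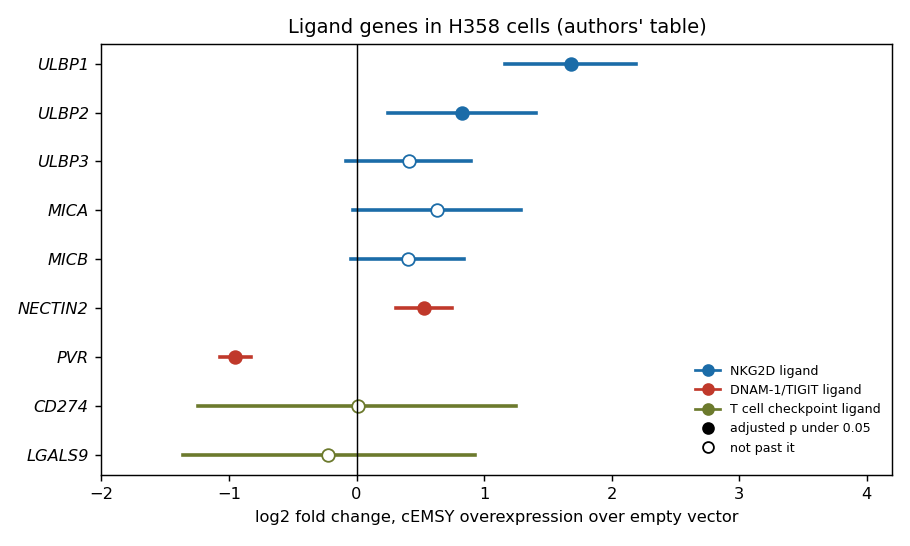
Log2 fold changes of the 9 ligand genes in H358, cEMSY overexpression over empty vector, with 95% intervals from the deposited standard errors. Filled points passed an adjusted p of 0.05. ULBP1 (1.68), ULBP2 (0.83) and NECTIN2 (0.53) lie above 0, PVR (-0.95) lies below it, and the intervals of CD274 and LGALS9 are the widest of the 9.

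Among the NKG2D ligands, 2 of 5 passed and both were higher. At the same threshold 32.4% of all tested genes passed, so this count is near the background. Of the genes at the signal range of the 9 (18.6 to 3476), 39.3% passed. That range is wider than the range of these 5 genes (56.7 to 124), for which no share was computed. ULBP1 (ENSG00000111981.5), a glycosylphosphatidylinositol-anchored NKG2D ligand, rose by 1.68 ± 0.26 (SE, log2 scale; adjusted p = 2.57e-09) in the authors' deposited table. That is 3.2-fold, with a 95% interval from 2.24 to 4.57, at a mean signal over all libraries of 92.2 in the authors' deposited table. It was the only 1 of the 9 genes that the authors marked as significant, a mark that all 1814 genes with an adjusted p under 0.05 and an absolute log2 fold change of at least 1 carried in the authors' deposited table; 9.47% of tested genes met both conditions, 6.6% higher and 2.87% lower. ULBP2 (ENSG00000131015.5), its close relative, rose by 0.83 ± 0.30 (SE, log2 scale; adjusted p = 0.0189) in the authors' deposited table, 1.78-fold with an interval from 1.19 to 2.66.

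The other 3 NKG2D ligand genes had positive fold changes and intervals that included 0. MICA (ENSG00000204520.14), which encodes a transmembrane ligand, stood at 0.63 ± 0.34 (SE, log2 scale; adjusted p = 0.149) in the authors' deposited table, with an interval from -0.03 to 1.29. MICB (ENSG00000204516.10), its neighbour in the MHC region, stood at 0.40 ± 0.22 (adjusted p = 0.167) in the authors' deposited table, with an interval from -0.04 to 0.84. For ULBP3 (ENSG00000131019.11), another anchored ligand, the value was 0.41 ± 0.25 (adjusted p = 0.222) in the authors' deposited table, with an interval from -0.08 to 0.90. These intervals leave room for no change and for increases of up to 2.44-fold for MICA, 1.79-fold for MICB and 1.87-fold for ULBP3. ULBP1 and ULBP2, which passed, had lower mean signals (92.2 and 68.1) than MICB (113) and ULBP3 (124) in the authors' deposited table.

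Of the other human NKG2D ligand genes, RAET1L was much higher and RAET1E and RAET1G did not pass. RAET1L (ENSG00000155918.8) rose by 7.14 ± 1.07 (SE, log2 scale; adjusted p = 4.38e-10) in the authors' deposited table, at a mean signal of 48.9. Its standard error was larger than those of 98% of the 651 genes at a similar mean signal, within a factor of 1.2 in the authors' deposited table. A fold with an interval from 32.9 to 607 at this mean signal places the empty vector level near 0. Values per library were not used here, and the fold is not used as a size. RAET1L and ULBP2 are near-identical in sequence, and how the authors' counting shared reads between them is not given, so the values of both are uncertain. RAET1E stood at -0.22 ± 0.31 and RAET1G at -0.52 ± 0.42 (SE, log2 scale; adjusted p = 0.664 and 0.384) in the authors' deposited table.

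In LLC1 the sole NKG2D ligand gene analysed moved the other way from human ULBP1. Mouse Ulbp1 (ENSMUSG00000079685, chromosome 10, 7440362 to 7473638, minus strand, mm10) encodes MULT1, a transmembrane NKG2D ligand. Its deposited signal was 9.0, 9.66 and 11.1 in the cEmsy libraries, against 22.7, 23.2 and 23.9 in the empty vector libraries. All 3 cEmsy libraries lay below all 3 empty vector libraries, and the lowest empty vector value was 2.04 times the highest cEmsy value. Ulbp1 averaged 9.91 ± 1.06 with cEmsy and 23.3 ± 0.632 with empty vector (SD, n = 3 each), and it fell by 1.16 on the log2(value + 1) scale (SE 0.08; limma, adjusted p = 3.97e-07). The 95% interval was -1.34 to -0.97 in LLC1, whereas that of ULBP1 in H358 was 1.16 to 2.19 in the authors' deposited table. Mouse Rae1 and H60 genes were not analysed here. Human ULBP1 and mouse Ulbp1 are related but not the same gene, the scales differ, and the difference between the lines was not tested.

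The LLC1 test says little beyond direction and size. Of the 2111 rows with a mean of at least 0.5, 2110 passed (100%), 47.3% higher and 52.6% lower, and in 99.8% the groups did not overlap, because the authors had chosen the rows as changed. All 3 ligand genes passed this filter. The exact two-sided permutation p of each single gene was 0.1, the smallest that 3 against 3 libraries can give. By size, Ulbp1 ranked 556 among the 1111 lower rows, whose median was -1.16.

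The ligands shared by DNAM-1 and TIGIT moved in opposite directions in H358. PVR (ENSG00000073008.15), also known as the poliovirus receptor, fell by 0.95 (log2 scale, SE 0.06; adjusted p = 1.71e-50) in the authors' deposited table, to 0.517 of its level with empty vector with an interval from 0.475 to 0.563. NECTIN2 (ENSG00000130202.10), an adhesion molecule of cell junctions, rose by 0.53 ± 0.11 (SE, log2 scale; adjusted p = 1.58e-05) in the authors' deposited table, 1.44-fold with an interval from 1.24 to 1.68. Both had high mean signals, 3476 for PVR and 1438 for NECTIN2 in the authors' deposited table, and their intervals do not meet. Neither reached an absolute log2 fold change of 1, and neither carried the authors' mark in the authors' deposited table.

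Other nectins and nectin-like genes showed no common direction. Of 5 in H358, 1 was higher and 1 lower in the authors' deposited table, with a list median of -0.30 against 0.03 over all tested genes, of which 15.6% were higher and 16.8% lower. CADM4, a nectin-like adhesion gene, rose by 0.88 ± 0.18 and CADM1, whose product binds the lymphocyte receptor CRTAM, fell by 0.48 (log2 scale, SE 0.13) in the authors' deposited table. In LLC1, Nectin4 had a signal of 1.24, 1.49 and 1.52 with cEmsy, against 0.22, 0.183 and 0.222 with empty vector. The groups did not overlap, as in 99.8% of the LLC1 rows with a mean of at least 0.5. Nectin4 rose by 1.00 ± 0.08 on the log2(value + 1) scale (SE; limma, adjusted p = 7.05e-07), whereas human NECTIN4 stood at 0.31 ± 1.04 with a mean signal of 4.62 in the authors' deposited table.

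CD274 (ENSG00000120217.14), the PD-L1 gene, had the largest standard error of the 9 ligand genes in H358. Its log2 fold change was 0.01 ± 0.64 (SE; adjusted p = 0.996) in the authors' deposited table, and the 95% interval ran from -1.24 to 1.25, or from 0.424-fold to 2.38-fold. The mean signal over all libraries was 35.1 in the authors' deposited table. Among the 657 genes within a factor of 1.2 of that signal the median standard error was 0.45, and 94.5% had a smaller one than CD274 in the authors' deposited table. The interval of CD274 includes no change, an increase as large as that of ULBP2 and a decrease as large as that of PVR.

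LGALS9 did not pass in H358, and Lgals9 had the largest change of the 3 ligand genes in LLC1. Human LGALS9 (ENSG00000168961.17) stood at -0.22 ± 0.59 (SE, log2 scale; adjusted p = 0.838) in the authors' deposited table, with an interval from -1.36 to 0.93 and a mean signal of 18.6. Its standard error lay close to the median of 0.61 for 738 genes at a similar signal in the authors' deposited table. LGALS9B, a near-identical copy whose reads may be shared with LGALS9 and which was looked up after the values were seen, stood at 3.97 ± 1.78 with a mean signal of 3.03 (adjusted p = 0.0734) in the authors' deposited table.

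**Figure D2:**
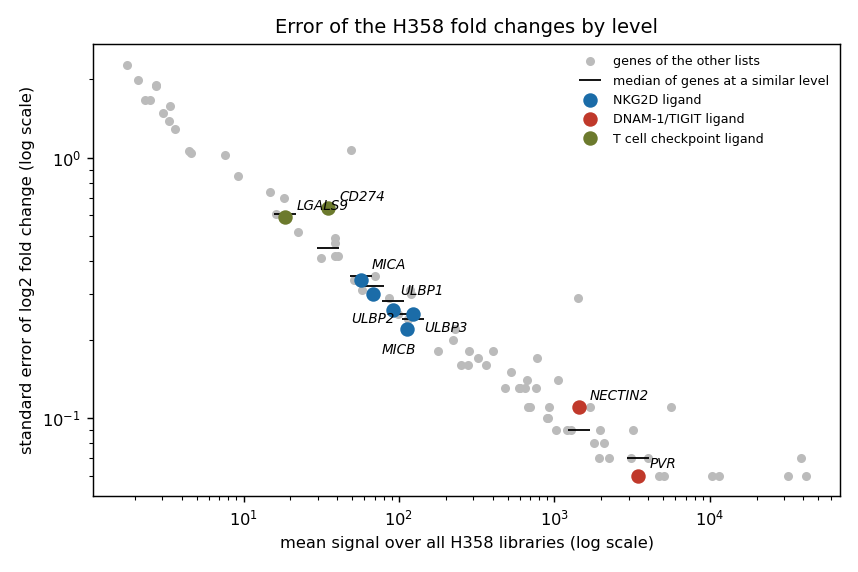
Standard error of the log2 fold change against the mean signal over all H358 libraries, both on log scales, for the 9 ligand genes (coloured by receptor) and the genes of the other lists (grey). Black dashes give the median standard error of genes within a factor of 1.2 of each ligand gene. CD274 (0.64) lies above its dash (0.45), and PVR (0.06) and NECTIN2 (0.11) have the smallest errors of the 9.

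Mouse Lgals9 (ENSMUSG00000001123, chromosome 11, 78962974 to 78984946, minus strand, mm10) had a deposited signal of 22.8, 27.6 and 20.5 in the cEmsy libraries, against 4.32, 5.60 and 5.66 in the empty vector libraries. The groups did not overlap, as in 99.8% of the LLC1 rows with a mean of at least 0.5. The lowest cEmsy value was 3.62 times the highest empty vector value. It averaged 23.6 ± 3.61 with cEmsy and 5.19 ± 0.758 with empty vector (SD, n = 3 each), a 4.55-fold ratio of means, and it rose by 1.99 ± 0.12 on the log2(value + 1) scale (SE; limma, adjusted p = 1.72e-07). Lgals9 ranked 71 by size among the 999 rows called higher, whose median was 1.04.

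Cd80 (ENSMUSG00000075122, chromosome 16, 38455561 to 38496335, plus strand, mm10) also rose, by less. Its signal was 10.4, 10.5 and 13.6 in the cEmsy libraries, against 4.96, 5.59 and 6.05 in the empty vector libraries. Again all cEmsy libraries lay above all empty vector libraries, with the third cEmsy library the highest. Cd80 averaged 11.5 ± 1.8 with cEmsy and 5.54 ± 0.547 with empty vector (SD, n = 3 each), and it rose by 0.93 ± 0.11 on the log2(value + 1) scale (SE; limma, adjusted p = 1.73e-05). It ranked 655 among the 999 higher rows. Library medians over the 2111 filtered LLC1 rows differed by -0.20 on the log2(value + 1) scale, cEmsy minus empty vector. Relative to that shift, the differences were 2.19 for Lgals9, 1.13 for Cd80 and -0.95 for Ulbp1. These rows had been chosen as changed, with 999 called higher and 1111 lower, so the shift cannot be read as an offset between whole libraries.

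**Figure D3:**
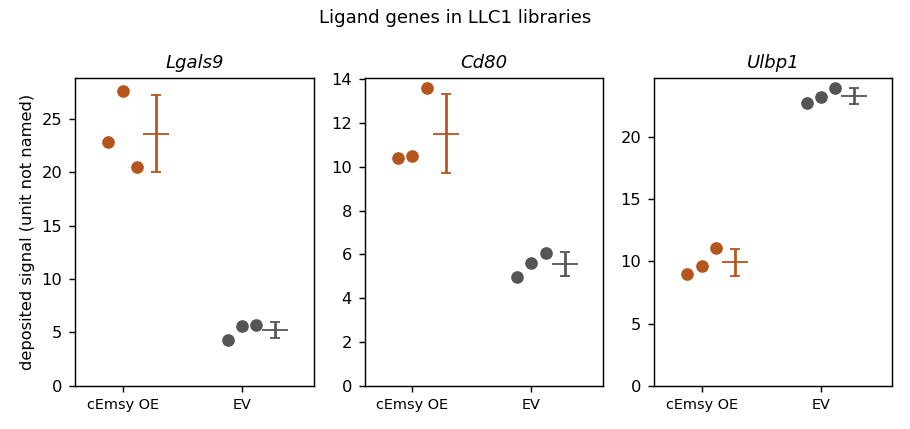
Deposited signal of Lgals9, Cd80 and Ulbp1 in each LLC1 library, with the mean and SD of 3 libraries beside the points. The cEmsy libraries lie above the empty vector libraries for Lgals9 (lowest 20.5 against highest 5.66) and Cd80 (10.4 against 6.05), and below them for Ulbp1 (highest 11.1 against lowest 22.7).

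Lgals9 and Cd80 moved up together in LLC1 while Ulbp1 moved down, so the promoter sequences of the 3 are shown for comparison, 250 bases before to 50 bases after the RefSeq start site (GRCm38.p6). They were searched on both strands for the core of the interferon-stimulated response element (GAAA and GAAA with any 2 bases between them), the gamma-activated site (TTCNNNGAA) and the CARE element bound by ATF4 (TGATGNAA), which do not overlap in these sequences. Capitals mark matches. Lgals9 lies at chr11:78984875-78985174 on the minus strand, Cd80 at chr16:38458683-38458982 on the plus strand and Ulbp1 at chr10:7473428-7473727 on the minus strand. The RefSeq start site of Cd80 lies 3372 bases inside the gene as GENCODE M21 places it, against 22 bases for Lgals9 and 161 for Ulbp1, so the Cd80 window is not at the GENCODE start.
Lgals9: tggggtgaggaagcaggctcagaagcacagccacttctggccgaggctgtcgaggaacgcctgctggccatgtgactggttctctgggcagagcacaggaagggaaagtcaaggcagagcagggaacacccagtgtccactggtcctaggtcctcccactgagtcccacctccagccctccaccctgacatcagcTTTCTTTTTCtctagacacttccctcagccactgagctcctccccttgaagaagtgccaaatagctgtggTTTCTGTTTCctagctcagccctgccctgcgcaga
Cd80: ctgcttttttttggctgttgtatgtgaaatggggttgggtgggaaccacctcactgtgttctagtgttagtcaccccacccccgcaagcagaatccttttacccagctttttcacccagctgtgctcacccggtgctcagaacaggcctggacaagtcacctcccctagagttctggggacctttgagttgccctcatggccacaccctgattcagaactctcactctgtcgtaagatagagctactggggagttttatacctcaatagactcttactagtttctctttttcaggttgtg
Ulbp1: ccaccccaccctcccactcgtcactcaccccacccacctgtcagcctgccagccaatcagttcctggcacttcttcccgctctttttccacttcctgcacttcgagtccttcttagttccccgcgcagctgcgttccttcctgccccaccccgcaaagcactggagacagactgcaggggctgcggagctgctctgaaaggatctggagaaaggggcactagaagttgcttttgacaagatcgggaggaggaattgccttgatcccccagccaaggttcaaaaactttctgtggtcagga
The Lgals9 window held 2 matches to the interferon element, both on the opposite strand, with first bases at positions -55 and 16 counted from the start site. Among all 32851 promoter windows of the same length, 3.44% held at least 1 such match and 0.225% held 2 or more. The Cd80 and Ulbp1 windows held no match to any of the 3 motifs, and the gamma-activated site and the CARE element occurred in 8.3% and 3.97% of all windows. A match in these letters is a description and not evidence of binding.

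Of 14 genes that act on PD-L1 expression in H358, 6 were higher, 1 was lower and 7 did not pass in the authors' deposited table, with a median of 0.16 against 0.03 over all tested genes. Over all tested genes 15.6% were higher and 16.8% lower, and 39.3% of those at the signal range of the 9 ligand genes passed in either direction in the authors' deposited table. That range (18.6 to 3476) is not that of these 14 genes (277 to 4700), for which no share was computed. IFNGR1, a subunit of the interferon gamma receptor, rose by 1.40 ± 0.07, and JAK2, a kinase bound to that receptor, by 0.91 ± 0.15 (SE, log2 scale) in the authors' deposited table. STAT2 rose by 0.71 ± 0.16 and IRF9, its partner in the interferon-stimulated transcription complex, by 0.68 ± 0.16 (SE, log2 scale) in the authors' deposited table. PTPN2, a phosphatase that dampens this signalling, also rose, by 0.33 ± 0.11 (SE, log2 scale) in the authors' deposited table. JAK1, the other kinase of the interferon gamma receptor, fell by 0.83 (log2 scale, SE 0.06) in the authors' deposited table. IRF1, a direct activator of the CD274 promoter, stood at 0.09 ± 0.17 and CMTM6, which protects PD-L1 from lysosomal degradation, at -0.10 ± 0.07 (SE, log2 scale; adjusted p = 0.758 and 0.277) in the authors' deposited table. In LLC1, Stat2 was the gene of this list that was analysed. Its signal was 4.01, 4.47 and 3.70 with cEmsy, against 1.76, 1.52 and 1.67 with empty vector. These groups did not overlap, as in 99.8% of the LLC1 rows with a mean of at least 0.5.

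**Figure D4:**
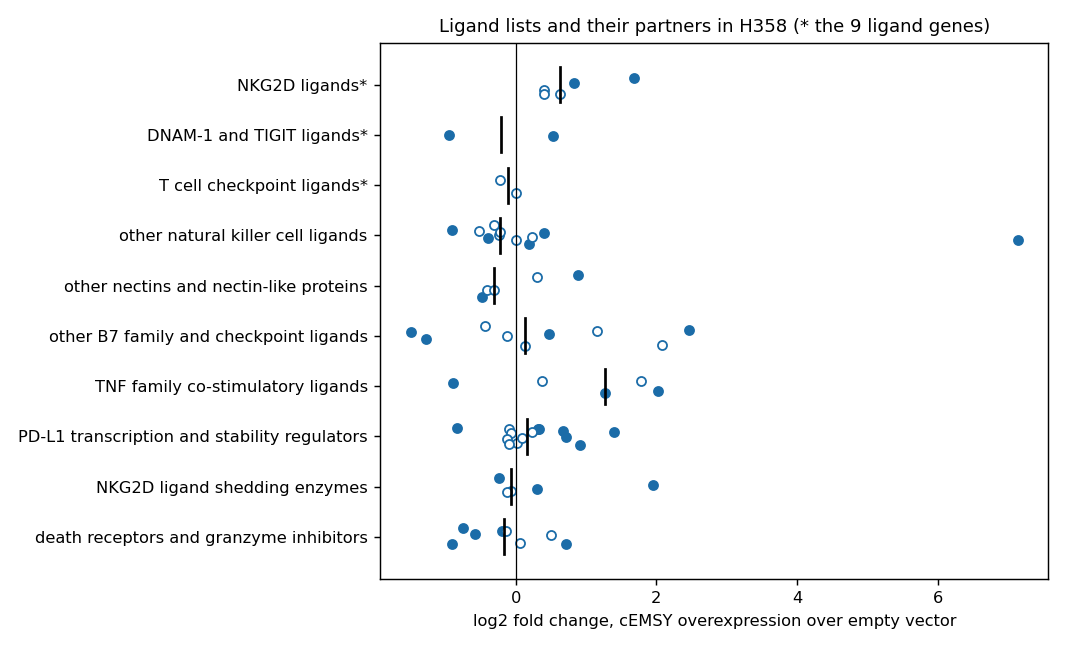
Log2 fold changes in H358 of the ligand genes and of related lists, cEMSY overexpression over empty vector. Each point is a gene with an adjusted p (vertical scatter has no meaning), filled where that p is under 0.05, and the bar is the list median. The row of NKG2D ligands holds 5 of the 9 ligand genes and has a median of 0.63. RAET1L (7.14), RAET1E (-0.22) and RAET1G (-0.52), also NKG2D ligand genes, are in the row of other natural killer cell ligands. The list labelled TNF family co-stimulatory ligands also holds the receptor gene CD40, whose value is the list median of 1.27.

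Of 9 other checkpoint ligand genes, of the B7 family and beyond, 2 were higher and 2 lower in the authors' deposited table, with a median of 0.14 against 0.03 over all tested genes, of which 15.6% were higher and 16.8% lower. CEACAM1, an inhibitory adhesion molecule, rose by 2.47 ± 0.30 and CD276 (B7-H3) by 0.48 ± 0.13 (SE, log2 scale) in the authors' deposited table. VSIR, which encodes the checkpoint protein VISTA, fell by 1.49 (log2 scale, SE 0.20) and LGALS3, the galectin-3 gene, by 1.27 (SE 0.14) in the authors' deposited table. PDCD1LG2, the PD-L2 gene, had a mean signal of 3.6 and stood at 2.08 ± 1.29 (SE, log2 scale; adjusted p = 0.225) in the authors' deposited table. Of the 5 TNF family co-stimulatory genes analysed, TNFSF14, which encodes LIGHT, rose by 2.02 ± 0.74 and CD40 by 1.27 ± 0.30, and CD70, the CD27 ligand gene, fell by 0.89 (log2 scale, SE 0.34) in the authors' deposited table.

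Ligands that natural killer cells read through receptors other than NKG2D changed in both directions in H358. Of 8 such genes, 2 were higher and 2 lower in the authors' deposited table, with a median of -0.12 against 0.03 over all tested genes, of which 15.6% were higher and 16.8% lower. With the 3 RAET1 genes, which were set apart after the values were seen, 3 of 11 were higher and 2 lower in the authors' deposited table, with a median of -0.22. HLA-E, which engages the inhibitory receptor CD94/NKG2A, rose by 0.41 ± 0.09 and BAG6, an NKp30 ligand gene, by 0.19 ± 0.08 (SE, log2 scale; adjusted p = 3.26e-05 and 0.0447) in the authors' deposited table. ICAM1, the adhesion ligand of LFA-1, fell by 0.90 (log2 scale, SE 0.18) and CD58, the CD2 ligand gene, by 0.39 (SE 0.16) in the authors' deposited table. NCR3LG1, which encodes the NKp30 ligand B7-H6, stood at -0.30 ± 0.22 (SE, log2 scale; adjusted p = 0.344) in the authors' deposited table.

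MMP14, a membrane-bound protease that can shed MICA, rose in both lines. In H358 it rose by 1.95 ± 0.49 (SE, log2 scale; adjusted p = 0.000414) at a mean signal of 39.0 in the authors' deposited table. Mouse Mmp14 had a signal of 60, 61.9 and 58.8 in the cEmsy libraries, against 24.4, 27.0 and 27.3 in the empty vector libraries, and rose by 1.17 ± 0.07 on the log2(value + 1) scale (SE; limma, adjusted p = 1.04e-07). Of the other shedding genes in H358, PDIA6 rose by 0.30 ± 0.06 and ADAM17 fell by 0.24 (log2 scale, SE 0.08), and ADAM9 and ADAM10 stood at -0.12 ± 0.06 and -0.06 ± 0.11 without passing (adjusted p = 0.101 and 0.718) in the authors' deposited table.

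Genes of death receptors, and of decoys and inhibitors that oppose killing, included 4 that were lower and 1 that was higher of 8 in H358 in the authors' deposited table. Their median was -0.16 against 0.03 over all tested genes, of which 16.8% were lower and 15.6% higher. SERPINB9, the granzyme B inhibitor gene, fell by 0.91 (log2 scale, SE 0.11), the decoy TRAIL receptor gene TNFRSF10D by 0.75 (SE 0.13), CFLAR, the gene of the caspase-8 inhibitor c-FLIP, by 0.58 (SE 0.09), and the TRAIL receptor gene TNFRSF10B by 0.19 (SE 0.07) in the authors' deposited table. FAS rose by 0.71 ± 0.17 (SE, log2 scale) in the authors' deposited table. Mouse Fas had a signal of 4.72, 4.21 and 4.85 with cEmsy, against 0.506, 0.207 and 0.292 with empty vector, and rose by 2.07 ± 0.10 on the log2(value + 1) scale (SE; limma, adjusted p = 4.55e-08).

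Receptors of these ligands are found on lymphocytes, though not all of them only there, and a pair of them had values in LLC1. Tigit had a signal of 3.72, 4.56 and 4.32 in the cEmsy libraries, against 7.84, 8.38 and 9.46 in the empty vector libraries, and fell by 0.88 on the log2(value + 1) scale (SE 0.10; limma, adjusted p = 8.54e-06). Pdcd1, the PD-1 gene, had 1.18, 1.57 and 0.764 with cEmsy and was listed at 0, 0 and 0.0207 with empty vector, so no fold is given (difference 1.09 ± 0.12 on the log2(value + 1) scale, SE; limma, adjusted p = 9.88e-06). In H358, KLRK1, the NKG2D gene, stood at 4.84 ± 1.91 (SE, log2 scale; adjusted p = 0.0372) in the authors' deposited table. Its mean signal was only 2.73, near the floor, so the fold is not used as a size. CD226, the DNAM-1 gene, stood at -1.13 ± 0.47 at a mean signal of 38.5 (adjusted p = 0.051) in the authors' deposited table. HAVCR2, the TIM-3 gene, stood at 0.87 ± 0.85 at a mean signal of 9.2 (adjusted p = 0.492) in the authors' deposited table. TIGIT, CD96, PDCD1, CD28 and CTLA4 were not analysed here in H358.

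**Figure D5:**
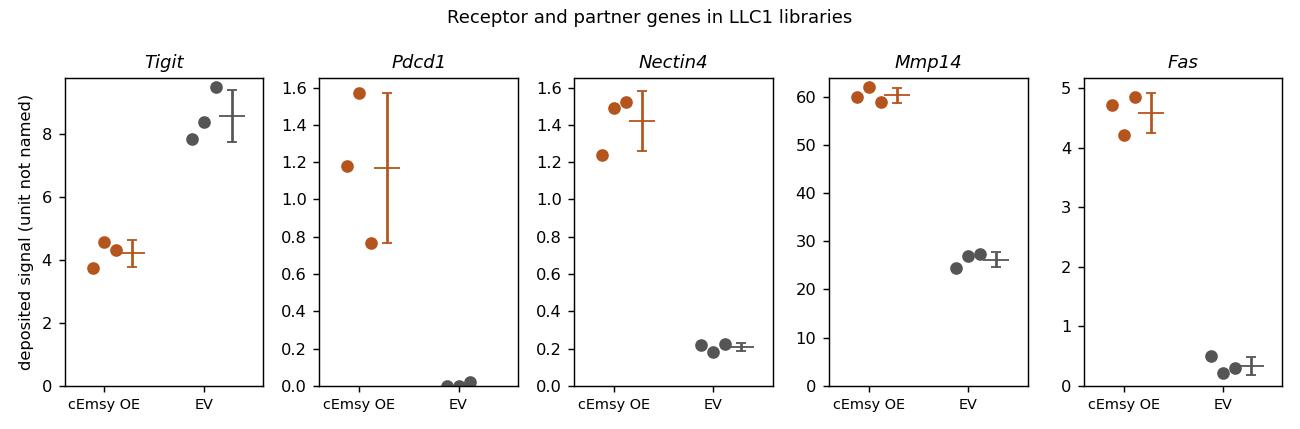
Deposited signal of Tigit, Pdcd1, Nectin4, Mmp14 and Fas in each LLC1 library, with the mean and SD of 3 libraries where none is at 0. The cEmsy libraries lie below the empty vector libraries for Tigit (highest 4.56 against lowest 7.84) and above them for the other 4 genes, as for Mmp14 (lowest 58.8 against highest 27.3).

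Macrophages and dendritic cells also express Lgals9 and Cd80, and their markers are given beside that result. Of 14 leukocyte markers, Cd68 and Lyz2 were analysed in LLC1, and both were higher. The authors had chosen all LLC1 rows as changed. Of the 2111 rows with a mean of at least 0.5, 47.3% were higher, and in 99.8% the groups did not overlap. Cd68 had a signal of 8.22, 8.29 and 5.84 with cEmsy, against 2.72, 2.27 and 2.39 with empty vector, and Lyz2 had 1.66, 1.36 and 1.45 against 0.609, 0.502 and 0.681. Their summed signal ranged from 7.29 to 9.88 in cEmsy libraries and from 2.77 to 3.33 in empty vector libraries. Ptprc, Csf1r and the other 10 markers were not analysed here, and the part of these genes in the Lgals9 and Cd80 result was not tested. In H358, 4 of the 14 were analysed, at mean signals from 2.1 to 602 in the authors' deposited table. Of the 3 with an adjusted p, 1 passed, against 32.4% of all tested genes in the authors' deposited table. It was CD68, which fell by 0.75 (log2 scale, SE 0.13) in the authors' deposited table. CD14 and ITGAX stood at 0.23 ± 0.29 and 0.46 ± 0.70 without passing, and NCAM1 at 2.35 ± 1.98 without an adjusted p, in the authors' deposited table.

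By the shape of their 6 values, the LLC1 rows closest to each ligand gene followed mainly the difference between the groups, which all listed rows have. Closest to Ulbp1 were Lin54 and Haspin, with root mean square differences of 0.025 and 0.035 between centred log2(value + 1) values. Lin54 averaged 3.11 ± 0.449 with cEmsy and 8.11 ± 0.0872 with empty vector (SD, n = 3 each). Closest to Cd80 were 3300002I08Rik (0.044) and Pcmtd2 (0.081), and closest to Lgals9 were the predicted genes Gm5788 (0.078) and Gm5286 (0.090).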

How the data were processed

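Total RNA was depleted of ribosomal RNA and made into directional libraries, per the labels' protocols. Tools named in the submitters' processing notes are STAR, featureCounts, FastQC and MultiQC, with the builds hg19 and mm10, and no version or role is stated. For LLC1 the authors deposited a signal per gene and library, for rows they had selected; no source used here gives its unit or quantifier, and the depth is unknown. For H358 the authors deposited a mean signal per gene, the log2 fold change, and p-values before and after adjustment, per the file headers. Standard errors and test statistics were deposited as score columns. In all 20347 genes the statistic is the ratio of fold change to standard error (tolerance 0.001). An adjusted p was absent for 1193 genes, which got no call.

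LLC1 values were fitted whole on log2(value + 1) by limma 3.58.1 (R 4.3.3) using its mean-variance trend, for rows with a mean of at least 0.5 and with Benjamini-Hochberg adjustment over those rows. This scale understates the change of low genes. The fit was tested on simulated data. The control columns carry a name that links them to the empty vector group but not to single labelled libraries. The H358 values were taken as deposited, and 95% intervals are the fold change plus or minus its deposited standard error times the normal quantile. No column of another series' samples was used (0 columns). The design had foreseen count tests; the files held no counts. Mouse positions are from GENCODE M21 (mm10), and promoter sequences from RefSeq (GRCm38.p6), where all 3 LLC1 genes matched by symbol. The members and lists were chosen with earlier results of these data known. Named genes are the members, up to 4 rises and 4 falls per list past the threshold in H358, list genes with LLC1 values, and the 2 nearest rows by profile. List genes named without a call were chosen after their values were seen. So were PTPN2 and CDH1, which passed but lie beyond the 4 of their lists. A gene of the list of PD-L1 regulators is not reported here and is left out of its counts. The alternatives tried were another pseudocount, no filter, centring, no trend and single libraries left out in LLC1, and other thresholds, filters, adjustments and centring in H358.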

Additional observations from a re-analysis of the deposited data

How the results depend on the processing

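With an absolute log2 fold change of at least 1 required as well, 1814 genes and 1 ligand gene (ULBP1) passed in H358, against 6211 and 4 without it. The 4 ligand genes passed under a filter at a mean signal of 10, under adjustment over all p-values and under centring on the median gene, with 3 higher and 1 lower each time, and at an adjusted p of 0.01 all but ULBP2 passed. In LLC1 the 3 ligand genes passed in the same direction under each alternative. With single libraries left out, the differences ranged from 1.88 to 2.08 for Lgals9, from 0.82 to 0.99 for Cd80 and from -1.23 to -1.10 for Ulbp1, and 2107 to 2109 rows passed. No paired analysis was possible because the LLC1 control columns are not linked to numbered libraries and the H358 table holds no values per library. In H358 the intervals of CD274, LGALS9 and PDCD1LG2 are wide, and in LLC1 the choice of rows leaves no share of changed genes to be read.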

Other observations

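Epithelial and lung marker genes, which are not ligands, moved in H358 and in LLC1. With cEMSY overexpression in H358, 5 of 7 such genes fell in the authors' deposited table, where 16.8% of all tested genes were lower. KRT19, a keratin of simple epithelia, fell by 3.91 (log2 scale, SE 0.31), KRT7 by 1.05 (SE 0.06), KRT8 by 0.43 (SE 0.06) and KRT18 by 0.38 (SE 0.07), and the E-cadherin gene CDH1 by 0.37 (each SE on the same scale, that of CDH1 0.09) in the authors' deposited table. Mean signals of KRT7, KRT8 and KRT18 were 31920, 41881 and 38482 in the authors' deposited table. EPCAM and NAPSA stood at 0.43 ± 0.42 and 0.89 ± 0.61 (SE, log2 scale) without passing in the authors' deposited table. NKX2-1 and SFTPB were not analysed here. In LLC1, Krt7 had a signal of 3.10, 2.93 and 2.62 with cEmsy, against 0.339, 0.338 and 0.271 with empty vector, and Napsa, an aspartic protease gene of lung epithelium, had 3.05, 1.61 and 2.20 against 0.759, 0.831 and 1.12. Both were higher in all 3 cEmsy libraries than in any empty vector library. The authors had chosen the LLC1 rows as changed, and in 99.8% of those with a mean of at least 0.5 the groups did not overlap. Of the endothelial and fibroblast markers, Col1a2 was analysed in LLC1, at 0.0828, 0.0308 and 0.108 with cEmsy, against 0.286, 0.179 and 0.198 with empty vector. In H358, 1 of 4 such genes passed in the authors' deposited table, against 32.4% of all tested genes. It was CDH5, which fell by 4.96 (log2 scale, SE 1.89) in the authors' deposited table. Its mean signal was only 2.75, so the fold is not used as a size. PECAM1, LUM and COL1A1 stood at 2.67 ± 1.66, 1.96 ± 1.02 and 0.23 ± 0.35 (SE, log2 scale) without passing in the authors' deposited table.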
